A study of Mus musculus with 4 samples.

Results

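Caveolins, cavins and the caveolar ATPase Ehd2 were examined in brown-like adipocytes made in culture from Lgr4 mutant and wild-type mice. The 7 genes were Cav1, Cav2, Cav3, Cavin1, Cavin2, Cavin3 and Ehd2, chosen by name, and all 7 were among the 18193 genes that the array's annotation names without ambiguity. They were read by 16 of 34945 probe sets that name 1 gene. Both genotypes were male mice aged 4 months, and each was represented by 2 arrays, 4 in all. The wild-type arrays came from wild-type mice. The other pair came from Lgr4 homozygous mutant mice. Lgr4 encodes a receptor that strengthens Wnt signalling, and which mutation they carried is not given in these sources. In both genotypes the stromal vascular fraction of epididymal white fat, which mixes precursor cells with immune and vascular cells, was grown with serum and basic FGF. All cultures then received insulin, isobutylmethylxanthine, dexamethasone, T3 and troglitazone for 48 h, and insulin, T3 and troglitazone for 6 days more. The PPAR gamma agonist troglitazone and the thyroid hormone T3 were therefore present in the controls too. The design thus compared brown-like fat cell cultures formed by cells with and without normal Lgr4.

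Caveolae are small flask-shaped pits of the plasma membrane, and adipocytes, endothelial cells and muscle cells carry many of them. Caveolin proteins sit in the inner leaflet of the membrane, cavins form a coat around the bulb, and EHD2 holds the neck. In fat cells caveolae hold receptors and fatty acid carriers and buffer membrane tension as the lipid droplet grows. Loss of CAV1 or of CAVIN1 causes lipodystrophy in mice and in people.

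All members but one rose together in the mutant cultures, and the exception, the muscle caveolin, missed the threshold. On the log2 scale, Cav1, Cav2, Cavin1, Cavin2, Cavin3 and Ehd2 rose by 0.88 to 2.39 on their brightest probe sets, which is 1.84-fold to 5.24-fold. By limma at an adjusted p of 0.05, 6 of the 7 members rose (5 at least 2-fold), 0 fell and 1 missed the threshold. Among all 13173 genes tested, 29.8% passed in either direction, 11.1% rose, 18.7% fell and 2.88% rose at least 2-fold. The members' median difference was 1.34, against -0.03 over all genes tested, and it was 0.88 when all probe sets of a gene were averaged. With that averaging Cavin1 (0.55) and Ehd2 (0.66) rose by less than 2-fold. Both mutant values lay above both wild-type values in all 7 members, Cav3 included, as they did in 28.9% of all genes tested, while the genotypes did not overlap in either direction in 68.8%. These are RNA signals of whole cultures, so more cells of a type and more RNA per cell cannot be told apart.

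**Figure D1:**
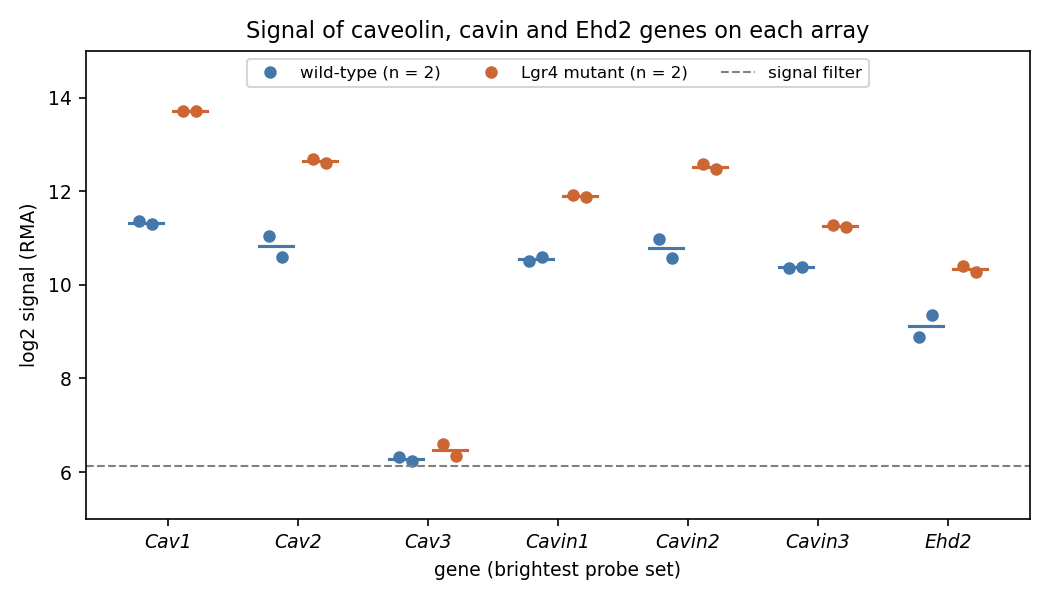
Deposited log2 signal (vertical axis) of the brightest probe set of each member on each array. Points are the 2 arrays of a genotype, short lines their means, and the dashed line the signal filter of 6.13. Mutant points stand above wild-type points in each gene, by a wide gap for all but Cav3, whose 4 points lie just above the filter.

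The library labels were checked first with the targeted gene and with fat cell markers. The brightest Lgr4 probe set gave 8.65 and 8.20 with wild-type RNA, against 6.18 and 6.09 with mutant RNA, a difference of -2.29 that was -1.10 with its probe sets averaged. All 10 adipocyte markers tested had signals above the filter in both genotypes, for example Adipoq at 11.26 and 11.24 (wild-type), then 14.48 and 14.45 (mutant). Median log2 signals of the 4 arrays ran from 6.65 to 6.69, and arrays correlated at 0.995 (wild-type pair), 0.998 (mutant pair) and 0.982 to 0.987 (between genotypes). No array was left out of the main comparison.

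The caveolins come first, since they build the membrane scaffold of the pit. Cav1, the caveolin without which non-muscle cells form no caveolae, showed the largest rise of the 7 genes. Its single probe set, 1449145_a_at, gave 11.35 and 11.29 with wild-type RNA, against 13.71 and 13.71 with mutant RNA. The replicates lay close together in both genotypes, and the gap between the nearest wild-type and mutant values was 2.36. The log2 difference was 2.39 (SE 0.09, 95% interval 2.18 to 2.60, limma adjusted p = 1.13e-06), or 5.24-fold. It ranked 78 of 13173 genes in size of rise, so 0.585% of the genes tested rose more. The array maximum was 15.15, and the mutant signal of Cav1 lay near that end of the range, where this kind of array compresses differences.

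Cav2 forms mixed oligomers with caveolin-1 and depends on it to reach the cell surface. Its brighter probe set, 1417327_at, gave 11.05 and 10.60 with wild-type RNA, against 12.68 and 12.61 with mutant RNA. The wild-type pair was more spread than the mutant pair (SD 0.32 against 0.05, n = 2 each), yet the genotypes were 1.55 apart at their nearest. The log2 difference was 1.81 (SE 0.14, 95% interval 1.48 to 2.15, limma adjusted p = 5.86e-05), or 3.52-fold. A second Cav2 probe set with weak signal gave 6.50 and 6.36 with wild-type RNA, against 6.87 and 6.82 with mutant RNA, a difference of 0.41 (limma adjusted p = 0.0331 in the fit of every probe set). With both probe sets averaged the Cav2 difference was 1.11 (adjusted p = 0.00051).

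Cav3 is the caveolin of skeletal, cardiac and some smooth muscle. It gave 6.32 and 6.24 with wild-type RNA, against 6.61 and 6.34 with mutant RNA, all 4 values close to the filter of 6.13. The values did not overlap, but the nearest were only 0.017 apart. The difference of 0.19 did not pass (SE 0.11, 95% interval -0.072 to 0.45, limma adjusted p = 0.242), and 20.3% of the genes tested had a larger rise. Beside it, 3 of 10 skeletal muscle markers passed the filter and 7 lay below it. Of those 3 tested, 0 rose and 0 fell, and their median difference was 0.04. Cav3 signal thus lay too near the filter for a change to be judged.

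Cavin1 is the core of the coat, and caveolae do not form in its absence. Its brightest probe set, 1424130_a_at, gave 10.52 and 10.60 with wild-type RNA, against 11.92 and 11.87 with mutant RNA. Within each genotype the arrays lay within 0.1 of each other, and the genotypes were 1.27 apart. The log2 difference was 1.34 (SE 0.09, 95% interval 1.12 to 1.55, limma adjusted p = 2.75e-05), or 2.53-fold. The other Cavin1 probe sets were dim and did not pass in the fit of every probe set. One read 6.93, 6.91, 6.99 and 7.02 (wild-type first), a difference of 0.09 (adjusted p = 0.599 in limma). The other, below the filter, read 4.74, 4.96, 5.21 and 4.98, a difference of 0.24 (adjusted p = 0.246 in limma). Averaging all 3 brought the Cavin1 difference to 0.55, which still passed (adjusted p = 0.00359).

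Cavin2 binds phosphatidylserine and helps to curve the membrane. Its brightest probe set, 1416778_at, gave 10.98 and 10.58 with wild-type RNA, against 12.58 and 12.47 with mutant RNA. The log2 difference was 1.75 (SE 0.14, 95% interval 1.43 to 2.06, limma adjusted p = 5.13e-05), or 3.36-fold. All 3 Cavin2 probe sets were bright and gave like sizes. A second gave 10.34 and 9.63 with wild-type RNA, against 11.99 and 11.91 with mutant RNA, a difference of 1.97. The last read 9.82, 9.20, 11.36 and 11.33 (wild-type first), a difference of 1.84. On all 3 probe sets wild-type replicate 1 read higher than wild-type replicate 2, and both mutant arrays stood above both.

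Cavin3 joins the coat through Cavin1 and acts in the traffic of caveolae. It rose least among the 6. Its single probe set, 1423771_at, gave 10.36 and 10.39 with wild-type RNA, against 11.27 and 11.24 with mutant RNA. The replicates differed by less than 0.05 and the genotypes by 0.88 (SE 0.09, 95% interval 0.67 to 1.09, limma adjusted p = 0.000253), or 1.84-fold.

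Ehd2 is a dynamin-like ATPase that forms rings at the neck and keeps caveolae at the surface. Its brightest probe set, 1424157_at, gave 8.88 and 9.35 with wild-type RNA, against 10.39 and 10.28 with mutant RNA. Here wild-type replicate 2 was the higher of its pair, the reverse of Cav2 and Cavin2. The log2 difference was 1.22 (SE 0.15, 95% interval 0.87 to 1.56, limma adjusted p = 0.000662), or 2.33-fold. Of its 5 probe sets 3 rose in the fit of every probe set, the other two risers by 0.99 each. Another was of middling signal and did not move with them. It gave 8.46 and 8.47 with wild-type RNA, against 8.50 and 8.33 with mutant RNA, a difference of -0.06 (adjusted p = 0.767 in limma) with overlapping values. The fifth lay below the filter at 4.99, 4.96, 5.25 and 5.00 (wild-type first). The mean over all 5 gave an Ehd2 difference of 0.66 (adjusted p = 0.00336).

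Over all members, 11 of 16 probe sets rose and 0 fell in the fit of every probe set, where 5.96% of 34945 rose and 15.5% passed in either direction. Probe sets of one gene share its transcripts and are not replicates. The probe sets that did not pass were that of Cav3, 2 of Cavin1 and 2 of Ehd2. Where each probe set of these genes lies on its transcript was not analysed here.

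**Figure D2:**
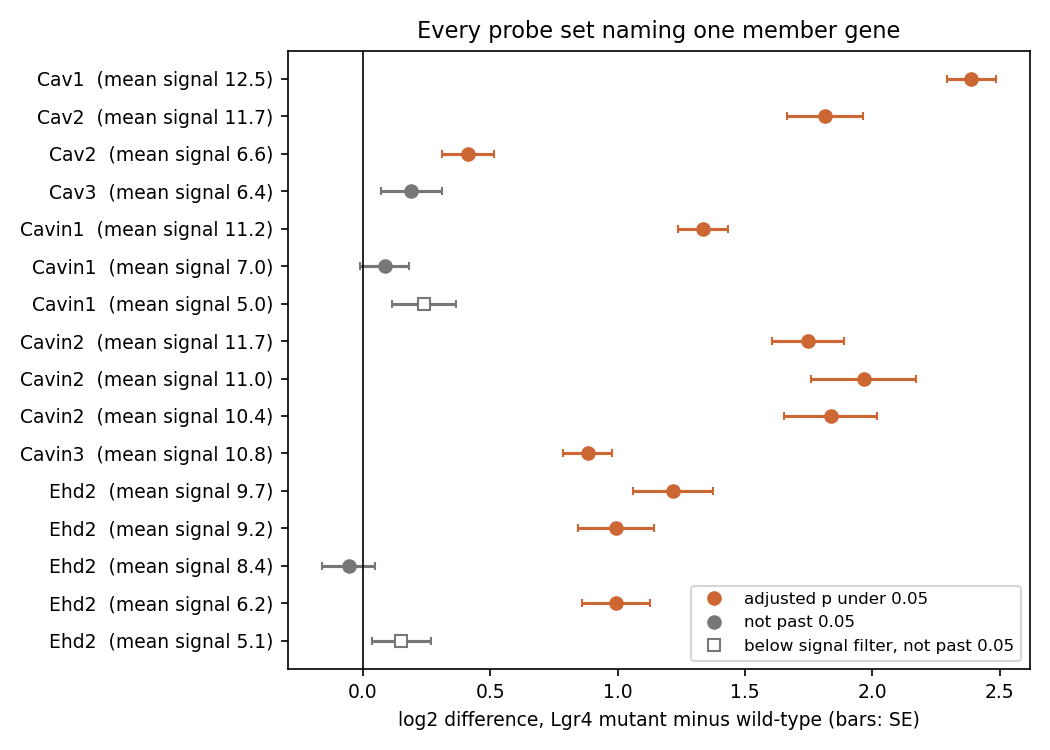
Log2 difference between mutant and wild-type cultures (horizontal axis) for each of the 16 probe sets, with its SE as a bar and its mean log2 signal in the row label. Orange marks an adjusted p under 0.05 and open squares a mean below the signal filter. Cav1 (2.39) stands furthest right, followed by the 3 Cavin2 probe sets and the brighter one of Cav2 (1.75 to 1.97), while the 2 open squares and the other grey points lie between -0.06 and 0.24.

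On the probe set used for each gene, the estimated rises were of unlike size among members. The 95% interval of Cav1 (2.18 to 2.60) did not meet those of Cav2 (1.48 to 2.15), Cavin1 (1.12 to 1.55), Cavin2 (1.43 to 2.06), Cavin3 (0.67 to 1.09) or Ehd2 (0.87 to 1.56). Differences between members were not tested themselves, and estimates also differed between probe sets of one gene, as in Cav2 (1.81 and 0.41). After each gene was centred on its own mean, the profiles of Cav2 and Cavin2 over the 4 arrays were the closest pair, with a Euclidean distance of 0.0809 log2 units. Cavin1 and Ehd2 followed at 0.303, and Cav1 lay 0.639 from its nearest member, Cav2. With 4 arrays such distances mostly restate the size of the genotype difference.

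**Figure D3:**
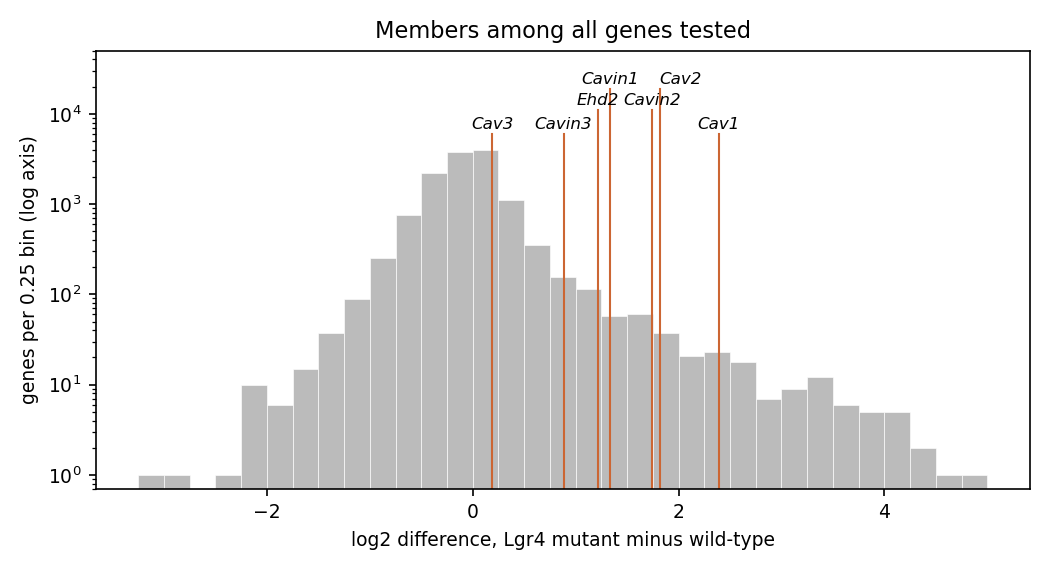
Histogram of log2 differences, mutant minus wild-type, over the 13173 genes tested, in bins of 0.25 with gene counts on a log axis. Orange lines mark the members: Cav3 (0.19) stands in the bulk and the other 6 (0.88 to 2.39) in the upper tail.

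Genes with the most similar profiles were found the same way among all genes tested. Closest to Cav1 were Retsat, a retinol saturase (distance 0.0937, log2 difference 2.32), Angptl8, a secreted regulator of lipoprotein lipase (0.102, 2.33), and Acer2, an alkaline ceramidase (0.109, 2.38). Closest to Cavin1 were Pccb, a subunit of propionyl-CoA carboxylase (distance 0.0362, log2 difference 1.31), the pentose phosphate enzyme Taldo1 (0.0669, 1.32) and Sh3glb2, an endophilin (0.0715, 1.38). These 6 genes were picked for likeness over the same 4 arrays, so their differences are a description.

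The start regions of Cav1, Cav2, Cavin1 and Cavin2, which rose together, are shown next, because they differ in base composition and in short motifs. RefSeq promoters of GRCm38.p6, 300 bases from 250 before to 50 after the gene's start, were found for 6 of the 7 members, with 8 starts. Cavin3 had none. Motifs were searched on both strands: the GC box GGGCGG, the E-box CACGTG, a C/EBP-type element TTGCNNAA, a TEAD element GGAATG and a TCF element CTTTGA. Capitals mark every match to any of them. The Cav1 region is chr6:17306085-17306384, + strand, that of Cav2 chr6:17280935-17281234, + strand, that of Cavin1 chr11:100970568-100970867, - strand, and that of Cavin2 chr1:51288876-51289175, + strand.
Cav1: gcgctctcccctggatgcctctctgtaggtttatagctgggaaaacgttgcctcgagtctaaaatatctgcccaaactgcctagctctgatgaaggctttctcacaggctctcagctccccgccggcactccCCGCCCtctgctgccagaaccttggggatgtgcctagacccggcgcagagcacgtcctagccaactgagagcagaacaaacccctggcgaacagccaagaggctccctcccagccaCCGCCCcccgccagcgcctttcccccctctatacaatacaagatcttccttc
Cav2: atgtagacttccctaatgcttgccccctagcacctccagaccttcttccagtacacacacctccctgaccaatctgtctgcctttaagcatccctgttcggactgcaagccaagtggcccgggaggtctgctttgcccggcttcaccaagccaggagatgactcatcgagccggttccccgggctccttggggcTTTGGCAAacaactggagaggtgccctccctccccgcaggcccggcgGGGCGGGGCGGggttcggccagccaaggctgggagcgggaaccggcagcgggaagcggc
Cavin1: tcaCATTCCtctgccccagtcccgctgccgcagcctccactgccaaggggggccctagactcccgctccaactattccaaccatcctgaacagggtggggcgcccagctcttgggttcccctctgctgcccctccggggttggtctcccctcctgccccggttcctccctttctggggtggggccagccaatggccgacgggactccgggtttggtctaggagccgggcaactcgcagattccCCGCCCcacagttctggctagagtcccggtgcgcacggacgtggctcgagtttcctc
Cavin2: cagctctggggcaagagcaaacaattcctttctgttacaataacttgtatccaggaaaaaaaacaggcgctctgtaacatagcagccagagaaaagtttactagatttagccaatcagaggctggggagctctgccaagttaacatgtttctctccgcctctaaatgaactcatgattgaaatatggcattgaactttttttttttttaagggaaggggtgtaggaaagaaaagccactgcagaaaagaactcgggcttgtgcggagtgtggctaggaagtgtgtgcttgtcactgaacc

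The GC box was present in 5 of the 8 member promoters, or 4 of 6 genes (Cav1, Cav2, Cavin1 and Ehd2), and in 35.7% of 32851 RefSeq promoters of this length. That background share is per promoter and not per gene. The 2 Cavin1 regions, with first bases 100970568 and 100970566, overlap almost wholly, so they are not separate cases. The second Cav1 region, not printed, held none of the searched motifs and had 16 CG pairs. In the printed Cav1 region both matches are on the reverse strand, starting at -118 and -2 from the gene's start. In Cav2 a pair of GC boxes at -9 and -4 shares 1 base. Cav2 was the only member with the C/EBP-type letters, at -56, which 10.8% of all promoters hold. The TEAD letters were found in Cavin1 at -247 and in Cav3 at 19, and in 14.7% of all promoters. The E-box (7.15% of all promoters) and the TCF letters (16.0%) were in 0 of the 8. Cavin2, which rose about as much as Cav2, held none of the searched motifs, and its region had 43.3% G and C with 4 CG pairs, against 64.3% and 16 in Cav2, 59.3% and 13 in Cav1, and 66.7% and 17 in Cavin1. The Ehd2 region, which is not printed, had 62% G and C with 18 CG pairs. The median over all promoters was 7 CG pairs, and 31.4% of promoters held fewer than Cavin2. Fewer than in Cav1 were held by 62.1%, than in Cav2 by 67%, than in Cavin1 by 68.6% and than in Ehd2 by 70.3%. A match in such a window is a run of letters and not a measured site.

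Cav2 and Cav1 are adjacent genes on chromosome 6, in that order, and their flanks did not move as one block. Before Cav2 lie Tfec, a transcription factor of the MiT family, and Tes, a focal adhesion protein, and both fell. Tfec gave 8.93 and 8.84 with wild-type RNA, against 7.72 and 7.93 with mutant RNA (log2 difference -1.06, limma adjusted p = 0.00023). Tes read 10.02 and 9.80 against 9.36 and 9.27 (-0.60, limma adjusted p = 0.00446). After Cav1 lies Met, the receptor of hepatocyte growth factor, which rose. It gave 6.07 and 5.81 with wild-type RNA, against 8.47 and 8.19 with mutant RNA (2.39, SE 0.13, limma adjusted p = 7.02e-06), with both wild-type values below the filter, so this size is not exact. With its probe sets averaged the Met difference was 1.17 (limma adjusted p = 0.000217). Beyond it, Capza2, an actin capping subunit, differed by -0.23 and did not pass (limma adjusted p = 0.0924).

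Around the 7 members, 24 other protein-coding genes lie within 2 places on either side in the RefSeq order. Of these 21 were tested, and 3 rose and 5 fell, against 11.1% rising and 18.7% falling among all genes. Besides Met, the risers were Nabp1, a single-strand DNA binding protein next to Cavin2, and Stat5a, a signal transducer near Cavin1. Nabp1 gave 9.47 and 9.01 with wild-type RNA, against 11.75 and 11.67 with mutant RNA (2.47, limma adjusted p = 1.11e-05). Stat5a rose by 0.47 (limma adjusted p = 0.00842), a call that ended without mutant replicate 1 (0.067) or 2 (0.0703). Besides Tfec and Tes, Slc39a10 (-0.41), Apbb1 (-0.31) and Bicra (-0.37) fell, and these last 3 calls each ended without mutant replicate 1, without mutant replicate 2 and after a second quantile normalization. The calls of Apbb1 (-0.15, limma adjusted p = 0.274) and Slc39a10 (-0.43, 0.0564) also ended with their probe sets averaged. That of Apbb1 ended as well without the filter (limma adjusted p = 0.0578), with every probe set tested (0.0585) and with a trend (0.0505). Leaving out an array gave 2 risers and 2 fallers without mutant replicate 1 or 2, 3 and 8 without wild-type replicate 1, and 7 and 7 without wild-type replicate 2. Stat3, between Stat5a and Cavin1, differed by -0.07 and did not pass (limma adjusted p = 0.65). The neighbour rule was chosen after the members' values were seen.

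**Figure D4:**
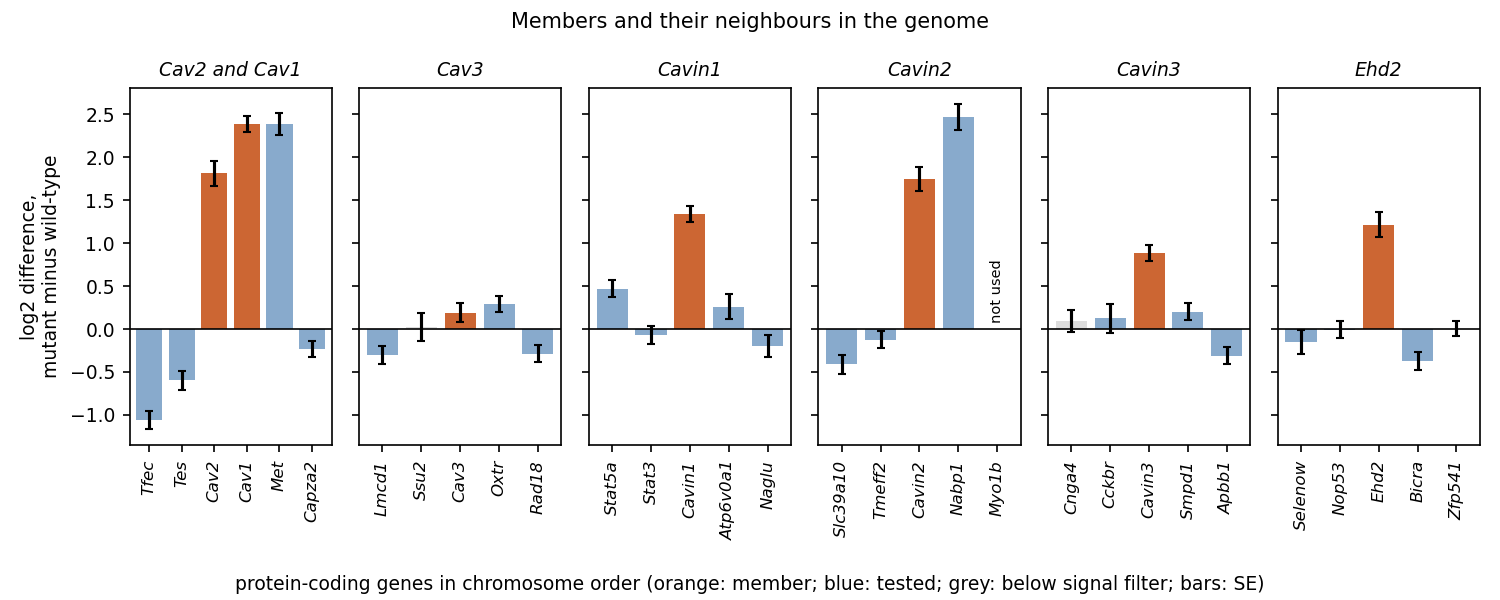
Log2 difference between mutant and wild-type cultures (vertical axis, bars with SE) for each member (orange) and the 2 protein-coding genes on either side in chromosome order. Blue bars are neighbours that were tested, grey ones lay below the signal filter. Tall neighbouring bars are seen for Met (2.39) beside Cav1 and Nabp1 (2.47) beside Cavin2, and no neighbour of Ehd2 rose.

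The genes tested in a list of other caveolar coat and neck proteins did not rise with the members. The only cavin in that list, Cavin4, was not among those tested, so the rest of the coat was hardly covered. Of 11 genes in this list 9 were tested: 0 rose, 3 fell and 6 missed the threshold, with a median difference of -0.14. Pacsin2 had no probe set that names it alone and was not measured. Ror1, a receptor tyrosine kinase-like protein that binds cavins, gave 10.32 and 9.87 with wild-type RNA, against 9.25 and 9.43 with mutant RNA (-0.76, limma adjusted p = 0.00696), a difference of -0.33 with its probe sets averaged (adjusted p = 0.0286). The EHD2 relatives Ehd3 (-0.45) and Ehd4 (-0.40) fell, while Ehd1 (-0.14, limma adjusted p = 0.29) did not pass. The calls of Ehd3 and Ehd4 ended without mutant replicate 1 (limma adjusted p = 0.106 and 0.189) and without mutant replicate 2 (0.0642 and 0.091), which left 1 faller in each case. The membrane-bending proteins Pacsin1 (0.06) and Pacsin3 (-0.11), the fission GTPase Dnm2 (0.09) and the actin crosslinker Flna (-0.33) did not pass. Pacsin1 lay close to the filter at 6.12, 6.16, 6.24 and 6.16 (wild-type first), too near it for a change to be judged. The muscle cavin Cavin4 lay below the filter at 5.93, 5.59, 5.68 and 5.67 (wild-type first).

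Flotillins and other raft scaffold proteins, which mark membrane domains apart from caveolae, moved little. Of 5 tested, 0 rose and 1 fell, with a median of -0.25. The one that fell was Erlin1, a prohibitin-family protein of the endoplasmic reticulum (-0.41, limma adjusted p = 0.0136), and its call ended without mutant replicate 1 (0.157), without replicate 2 (0.0873) and with its probe sets averaged (0.0584). Without wild-type replicate 1 there were 2 fallers, and without wild-type replicate 2 there were 2 fallers and 1 riser. Flot1 (-0.28) and Flot2 (0.14) did not pass. In the clathrin list, the coat of the other well-known kind of pit, 0 of 13 rose and 3 fell (median -0.21). These were the membrane-bending adaptor Epn2 (-0.63, and -0.32 with its probe sets averaged), Fcho2 (-0.60), which starts the pit, and the heavy chain Cltc (-0.43). The Cltc call ended without mutant replicate 1 (limma adjusted p = 0.0699) and without replicate 2 (0.14). The clathrin list had 8 fallers without wild-type replicate 1, 1 riser without wild-type replicate 2, and 5 fallers when limma was run with a trend or with the replicate block.

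Receptors and signalling proteins that reside in caveolae went both ways. Among 13 tested there were 4 risers and 7 fallers, with a median of -0.43. With all probe sets of a gene averaged there were 5 risers and 6 fallers, with a median of -0.29. The insulin-responsive glucose transporter Slc2a4 rose by 1.59, from 7.61 and 7.90 to 9.40 and 9.30, and the fatty acid carrier Cd36 by 1.26, from 12.50 and 12.06 to 13.55 and 13.53. The other risers, singled out after seeing values, were Nos3 (1.14), the nitric oxide synthase that caveolin-1 binds, and the adenylyl cyclase Adcy6 (0.87). The insulin receptor Insr differed by 0.30 and did not pass (limma adjusted p = 0.0655). The TGF-beta receptors fell, Tgfbr2 by 0.80 and Tgfbr1 by 0.75. With probe sets averaged the differences were -0.39 and -0.50, and both still passed (limma adjusted p = 0.0122 and 0.025). The 7 fallers became 3 without mutant replicate 1 and 4 without mutant replicate 2.

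Genes of Yap and Taz, coactivators whose activity is tied to membrane tension and cell shape, fell or did not pass. Of 14 tested, 0 rose and 9 fell, with a median of -0.57. Ankrd1 fell by 1.44 and Ccn1 by 1.28, both widely used as targets of Yap. Mutant values of Ankrd1 (6.26 and 6.53) lay near the filter, so the size of its fall is not exact. Yap1 itself (-0.27, limma adjusted p = 0.0597) and Wwtr1, which encodes Taz (0.12), did not pass. When all probe sets of a gene were averaged, 1 gene of this list rose and 8 fell.

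Markers of the cells that carry caveolae were set beside the members. All 10 adipocyte markers tested rose, with a median difference of 3.07, led by Retn (4.49), an adipokine, and Cidec (3.96), a lipid droplet protein. The mean log2 signal of that list was 9.84 and 9.88 with wild-type RNA, against 12.68 and 12.62 with mutant RNA. Fabp4 signal was the maximum of both mutant arrays (15.15 each), and its difference was 1.19, or 2.34 with all its probe sets averaged. The part of the adipocyte markers' rise in that of the members was not tested.

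Endothelial markers, from another cell type rich in caveolae, had weak signals and small differences, which were above 0 for all tested but Vwf. The mean log2 signal of the 14 was 7.07 and 7.15 with wild-type RNA, against 7.31 and 7.20 with mutant RNA, with Tie1 below the filter and Pecam1 at 6.26, 6.23, 6.51 and 6.39 (wild-type first). Of 13 tested 1 rose and 1 fell, with a median of 0.20. With the replicate block 3 rose and 1 fell. Cdh5, a junctional cadherin, rose by 0.42 (limma adjusted p = 0.041), a call that ended when arrays were centred on their medians (0.0508), without the filter (0.0513), with all probe sets averaged (0.134) or tested singly (0.0618), without wild-type replicate 1 (0.0695) and without mutant replicate 1 (0.422). Vwf, whose mutant mean (5.99) lay below the filter, fell by 0.40, which ended without mutant replicate 1 (limma adjusted p = 0.0619) or 2 (0.248). Without wild-type replicate 2 there were 3 risers, and without wild-type replicate 1 there were 2.

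Smooth muscle and mural markers, from cells that carry caveolae as well, split into 2 risers and 5 fallers among 12 tested (median -0.26). The channel subunit Abcc9 (0.62) and the pericyte proteoglycan Cspg4 (0.39) rose. The Cspg4 call needed both mutant arrays, though its difference was 0.34 without mutant replicate 1 and 0.44 without mutant replicate 2. Rgs5 (-2.09) and Cnn1 (-0.74) fell. Both mutant values of Rgs5 (5.70 and 5.62) lay below the filter, so the size of its fall is not exact. The list's mean log2 signal was 9.12 and 9.17 with wild-type RNA, against 8.82 and 8.85 with mutant RNA. Fibroblast and progenitor markers had 0 risers and 7 fallers among 11 tested (median -0.42), with Thy1 at -2.17 and Col1a1 at -0.70 (-0.42 without wild-type replicate 2), and mean signals of 11.43 and 11.51 against 10.96 and 11.02. Macrophage markers had 0 risers and 6 fallers among 12 (median -0.32), with Itgam at -0.79 and Fcgr1 at -0.68, and mean signals of 12.42 and 12.46 against 12.09 and 12.08. Of 4 mesothelial markers tested, 0 rose and 0 fell in limma, but 1 rose without wild-type replicate 1 and 1 fell without wild-type replicate 2. Leaving out other arrays gave 8 smooth muscle fallers without wild-type replicate 1, 4 fibroblast fallers without mutant replicate 1, 1 fibroblast riser without wild-type replicate 2, and 3 macrophage fallers without mutant replicate 1 or 2. The part of these lists in the members' rise was not tested.

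**Figure D5:**
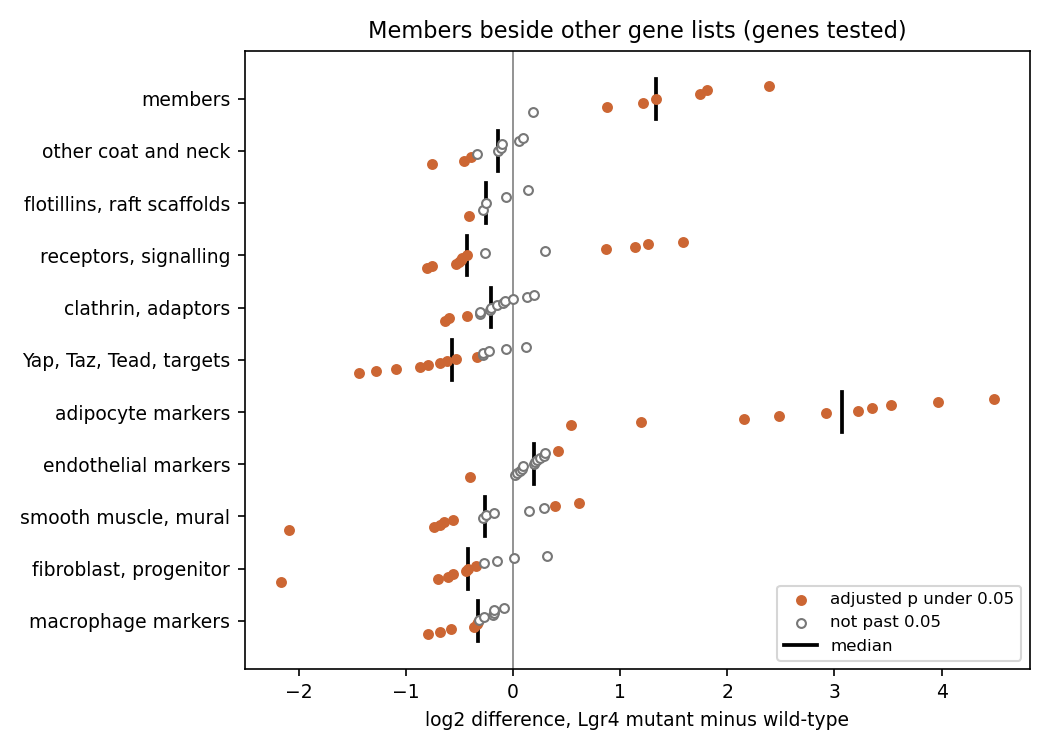
Log2 difference between mutant and wild-type cultures (horizontal axis) of each gene tested in the members, the pathway lists and the marker lists. Filled points passed an adjusted p of 0.05, open points did not, and black bars are list medians. The members (median 1.34) and adipocyte markers (3.07) lie to the right. The median of the genes tested in the other coat and neck list (-0.14), which leaves out Cavin4, lies near 0.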

How the data were processed

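RNA from 4 cultures was measured on an Affymetrix 3' expression array. The authors deposited a log2 signal for each probe set, made with Partek 6.6 and RMA, per the submitters' processing notes. RMA subtracts background, equalises array distributions and compresses differences at both ends of the range. That the scale is log2 follows from the range of the values, and no source used here names the RMA variant. Of 45101 probe sets, 64 controls were left out, and 34945 named 1 gene (932 named several, 9160 none). Symbols were updated through RefSeq GRCm38.p6, where 204 of these probe sets found no match.

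Each gene was represented by its brightest probe set and tested if its mean lay above 6.13, the 40th percentile over all probe sets. The genotype comparison used limma 3.58.1 under R 4.3.3 (lmFit, eBayes; 2 residual and 6.21 prior degrees of freedom), with Benjamini-Hochberg adjustment over 13173 genes and a threshold of 0.05. Single probe sets were fitted over all 34945. All p-values are 2-sided and each SD is over 2 arrays. The fit was also run on simulated data with added differences, drawn from its own variance model. That run checks the code and not the calls made here. The labels call the arrays biological replicates but name no animals, so p-values reflect the spread of these samples alone and that spread may be technical. Precision is limited by the number of arrays.

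The members and all lists were chosen with earlier results of these data known. The genes named are all members, every called gene of the coat and neck list, up to 2 per direction of each other list by size, and the 3 profiles nearest to Cav1 and to Cavin1. Exceptions are Nos3, Adcy6, Cltc, the promoter motifs and the genomic neighbours, chosen after values were seen, and list genes given as not passing or as markers of level. Alternatives varied the filter, the probe set rule, the normalization, the variance model, the replicate block and the arrays.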

Additional observations from a re-analysis of the deposited data

How the results depend on the processing

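The count of 6 members called, all higher, was the same under all 12 alternatives, and each member kept its direction and its side of the threshold wherever it was tested. Cav3 was not tested with the filter at the 60th percentile. Leaving out 1 array gave 2.36 to 2.42 for Cav1, 1.59 to 2.04 for Cav2, 0.06 to 0.33 for Cav3, 1.30 to 1.38 for Cavin1, 1.55 to 1.95 for Cavin2, 0.87 to 0.90 for Cavin3 and 0.98 to 1.45 for Ehd2. The lone array left was assumed to vary like the other genotype. Averaging probe sets lowered Cav2 to 1.11, Cavin1 to 0.55 and Ehd2 to 0.66, and the median of the members from 1.34 to 0.88, an alternative that weights dim probe sets equally with bright ones. The count over all genes was 3924, and 1879 to 6317 when 1 array was left out: 1879 without mutant replicate 1, 2224 without mutant replicate 2, and 6317 without wild-type replicate 2. The cause was not tested. With the replicate number as a block (replicate block), 4879 genes and the same number of members were called, and the differences did not move. Deviations of same-numbered arrays correlated at 0.159 over genes, but with 2 pairs this does not show that the numbers pair the samples. Signal near or below the filter limits Cav3, Pacsin1, the dim Cavin1 probe sets and the wild-type value of Met. The same holds for the mutant values of Lgr4, Ankrd1, Rgs5 and Vwf.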
